A study of Mus musculus with 8 samples.

Results

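The Obox genes are a family of oocyte-specific homeobox genes, and 7 of the 46078 genes in the count table carry the names Obox1, Obox2, Obox3, Obox5, Obox6, Obox7 and Obox8. They were selected from the table by gene name, and the family itself was chosen with earlier results of these data known. All 7 had counts, and all 7 passed the filter on low values, which kept 19241 genes. A homeobox encodes the DNA-binding domain of a transcription factor, and in the mouse this family expanded into a large cluster of related genes and pseudogenes. Obox1, Obox2, Obox5 and Obox7 are known as maternal members, whose mRNAs accumulate in the growing oocyte and are stored for the embryo. Obox3 is known as a member that is transcribed after fertilization, around the time when the zygotic genome is switched on.

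RNA was measured in fully grown germinal vesicle (GV) oocytes of mice in which Zp3-Cre, a recombinase driven by the promoter of a zona pellucida gene of growing oocytes, deleted floxed Cnot7 and Cnot8 in the oocyte. CNOT7 and CNOT8 are among the catalytic deadenylase subunits of the CCR4-NOT complex, which shortens poly(A) tails of mRNAs. Control oocytes carried Zp3-Cre. Each group had 4 libraries, and a library held the RNA of 100 oocytes. The study's methods describe females of 4 weeks on a C57BL/6J background, injected with 5 IU PMSG, a gonadotropin, and oocyte collection 48 h later, so that the oocytes of both groups came from stimulated ovaries. The labels do not say how many animals a library pools or whether the libraries of a group came from separate animals, so p-values measure the spread between these libraries, which may be technical. The number of oocytes expressing an Obox gene and the amount of its RNA per oocyte cannot be told apart in pools.

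Total counts lay between 8639444 and 44092144. Cnot8 averaged 168 ± 20.01 CPM over control libraries and 35.2 ± 1.40 CPM over KO libraries (SD, n = 4 each), and Cnot7 had 933 ± 77.3 and 719 ± 70.8 CPM. CPM values are counts scaled to a common library size after TMM normalization. Oocyte markers such as Zp3 and Gdf9 summed to between 15611 and 21770 CPM in all libraries, and 15 markers of granulosa and cumulus cells to between 75.5 and 102 CPM in control replicates and 98.8 and 199 CPM in KO replicates. Control replicate 1 was the deepest library and stood highest for the abundant Obox genes, and KO replicates 3 and 4 stood highest for genes of the 2-cell embryo, as given beside the results below.

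The members lay within 1.51 Mb of chromosome 7 of GRCm38, in the order Obox8 (chr7:14331436-14333557, minus strand), Obox7 (chr7:14659496-14665996, plus strand), Obox2 (chr7:15388721-15398545, plus strand), Obox1 (chr7:15388948-15556866, plus strand), Obox3 (chr7:15479825-15639902, minus strand), Obox5 (chr7:15750131-15759800, plus strand) and Obox6 (chr7:15833241-15839678, minus strand). The annotated span of Obox1 overlaps that of Obox2 on the same strand, through a transcript that begins within the first exon of Obox2. How alike the genes are can be seen in 72 bases of the homeobox, shown because reads from identical stretches cannot be assigned to a single gene. The stretch was taken from the longest annotated transcript of each gene that has both a start and a stop codon. The bases come from GRCm38 with the GENCODE vM21 annotation, and capitals mark bases that differ from Obox1.
Obox1: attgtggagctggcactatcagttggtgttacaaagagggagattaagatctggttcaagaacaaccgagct
Obox2: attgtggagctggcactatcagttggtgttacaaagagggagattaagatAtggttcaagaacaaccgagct
Obox3: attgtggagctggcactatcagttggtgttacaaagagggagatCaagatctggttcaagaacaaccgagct
Obox5: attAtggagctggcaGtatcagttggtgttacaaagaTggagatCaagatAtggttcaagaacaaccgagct
Obox7: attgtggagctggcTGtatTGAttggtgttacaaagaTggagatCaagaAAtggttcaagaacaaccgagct
Obox6: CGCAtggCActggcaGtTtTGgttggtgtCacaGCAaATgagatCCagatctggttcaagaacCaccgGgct
Obox8: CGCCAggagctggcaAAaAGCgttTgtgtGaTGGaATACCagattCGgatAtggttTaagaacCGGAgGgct

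In this stretch Obox2 and Obox3 each differed from Obox1 at 1 base, Obox5 at 5, Obox7 at 9, Obox6 at 20 and Obox8 at 29. Over the aligned coding sequences, Obox1 and Obox2 were 98.5% identical, Obox5 and Obox7 were 96.0% identical, and Obox3 was 93.8% identical to Obox1. Obox6 was 74.1% to 79.9% identical to those 5 members, and Obox8 was 49.0% to 52.2% identical to all others. The proteins encoded by these longest transcripts had 151 residues in Obox2, 204 in Obox1, 217 in Obox8, 218 in Obox7, 291 in Obox5, 335 in Obox3 and 347 in Obox6. The second coding exon held 200 bases in Obox1, Obox3, Obox5 and Obox7 and 199 bases in Obox2. The last coding exon of Obox2 held 37 bases before the stop codon. The 72 bases shown began at coding base 369 in Obox2 and at 370 in Obox1, Obox3, Obox5 and Obox7. In this Obox2 transcript they are thus read in another frame, so their likeness in bases is not a likeness of the encoded protein.

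The reach of this likeness into the counts was measured with windows of 100 bases. Of the windows of the Obox2 transcript, 42.5% were found unchanged in Obox1, and 40.9% of the Obox1 windows were found in Obox2. Obox3 shared 15.9% of its windows with other annotated transcripts, most of them with the pseudogene Obox3-ps3 (13.4%). Obox7 shared 2.7% with Obox5, Obox5 shared 0.1% with Obox7, and no window of Obox6 or Obox8 was found elsewhere in the annotated transcripts. How reads that match several genes were counted is not given in the sources used here, so the division of counts between Obox1 and Obox2, and between Obox3 and its pseudogenes, is uncertain, whereas Obox5, Obox6, Obox7 and Obox8 are nearly free of such windows.

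**Figure D1:**
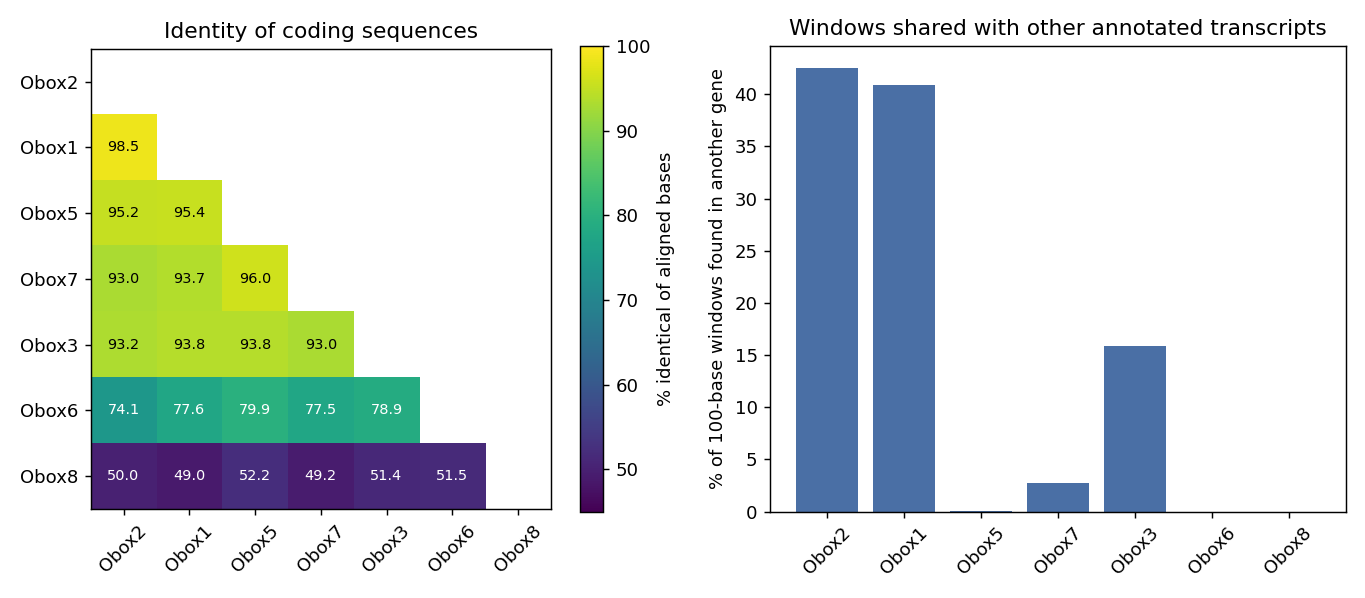
Left, percent identity of the aligned coding sequences for each pair of the 7 members. Right, percent of the 100-base windows of each member's transcript that occur unchanged in another gene's annotated transcript, which is above 40% for Obox1 and Obox2 and 0 for Obox6 and Obox8.

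Fully grown oocytes of both genotypes held 4 abundant Obox mRNAs and little or none of the other members. Per kilobase of exon, the control level was 1601 CPM for Obox2, 752 for Obox5, 601 for Obox1 and 153 for Obox7, against 0.511 for Obox3, 0.0562 for Obox6 and 0 for Obox8. By mean CPM over all libraries, Obox2 ranked 24th, Obox5 46th, Obox1 83rd and Obox7 702nd among the 19241 tested genes. The ranges per kilobase of Obox5 (665 to 906 CPM) and Obox1 (499 to 747 CPM) overlapped between control libraries, although Obox5 was the higher of the pair in each library, and the other neighbours in this order did not overlap in control apart from Obox6 and Obox8. The order was the same in KO oocytes, with 1028, 579, 419, 185, 1.70, 1.09 and 0.726 CPM per kilobase. Obox6 and Obox3 overlapped there, as did Obox8 and Obox6. Together the members took 0.452% to 0.589% of all counts in control libraries and 0.420% to 0.463% in KO libraries.

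The 3 most abundant maternal mRNAs were lower in CNOT7&8 KO oocytes. Obox2 was at 3268, 2339, 2589 and 2345 CPM in control replicates 1 to 4 and at 1683, 1753, 1519 and 1813 CPM in KO replicates 1 to 4. Obox1 was at 1420, 948, 1163 and 1034 CPM in control replicates and at 798, 827, 713 and 843 CPM in KO replicates. Every KO library lay below every control library for both genes, and control replicate 1 was the highest of the 8 libraries. Obox2 fell to 64.2% of the control level (2635 ± 438 to 1692 ± 127 CPM, SD, n = 4 each), which is -0.64 on the log2 scale with a standard error of 0.12 (Benjamini-Hochberg adjusted p = 0.00101 in the quasi-likelihood test of edgeR). Obox1 fell to 69.7% (1141 ± 206 to 795 ± 57.9 CPM), or -0.52 on the log2 scale with a standard error of 0.13 (adjusted p = 0.00465, the same edgeR test). Because these genes share windows, their counts cannot be taken as independent.

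Obox5, which shares almost no window with another gene, was at 1935, 1420, 1573 and 1495 CPM in control replicates and at 1290, 1248, 1153 and 1254 CPM in KO replicates. The groups did not overlap here either, but the gap between the lowest control and the highest KO library was narrow. Obox5 fell to 77.0% of control (1606 ± 228 to 1236 ± 58.6 CPM), and its log2 change was -0.38 with a standard error of 0.11 (adjusted p = 0.0132, edgeR). Left with library sizes alone, without TMM scaling, the log2 fold change was -0.23 for Obox1 and -0.091 for Obox5, and neither passed an adjusted p of 0.05 in edgeR's test.

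Obox7, the fourth maternal member, did not go down with the others. Control replicates were at 319, 209, 232 and 219 CPM, and KO replicates at 290, 309, 281 and 302 CPM. Control replicate 1 stood above all KO libraries, and the 3 other control libraries lay below all of them. The mean was 245 ± 50.4 CPM in control replicates and 296 ± 12.6 CPM in KO replicates, and the log2 change of 0.27 (its standard error was 0.13) did not pass the threshold (adjusted p = 0.099, edgeR). Without control replicate 1 the log2 fold change of Obox7 was 0.43 (adjusted p = 0.00102, edgeR), and without KO replicate 3 it was 0.33 (adjusted p = 0.0384, edgeR). It also passed when library sizes were scaled by the upper quartile (0.38), by library size alone (0.56) or by TMM on genes of at least 10 CPM (0.54).

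**Figure D2:**
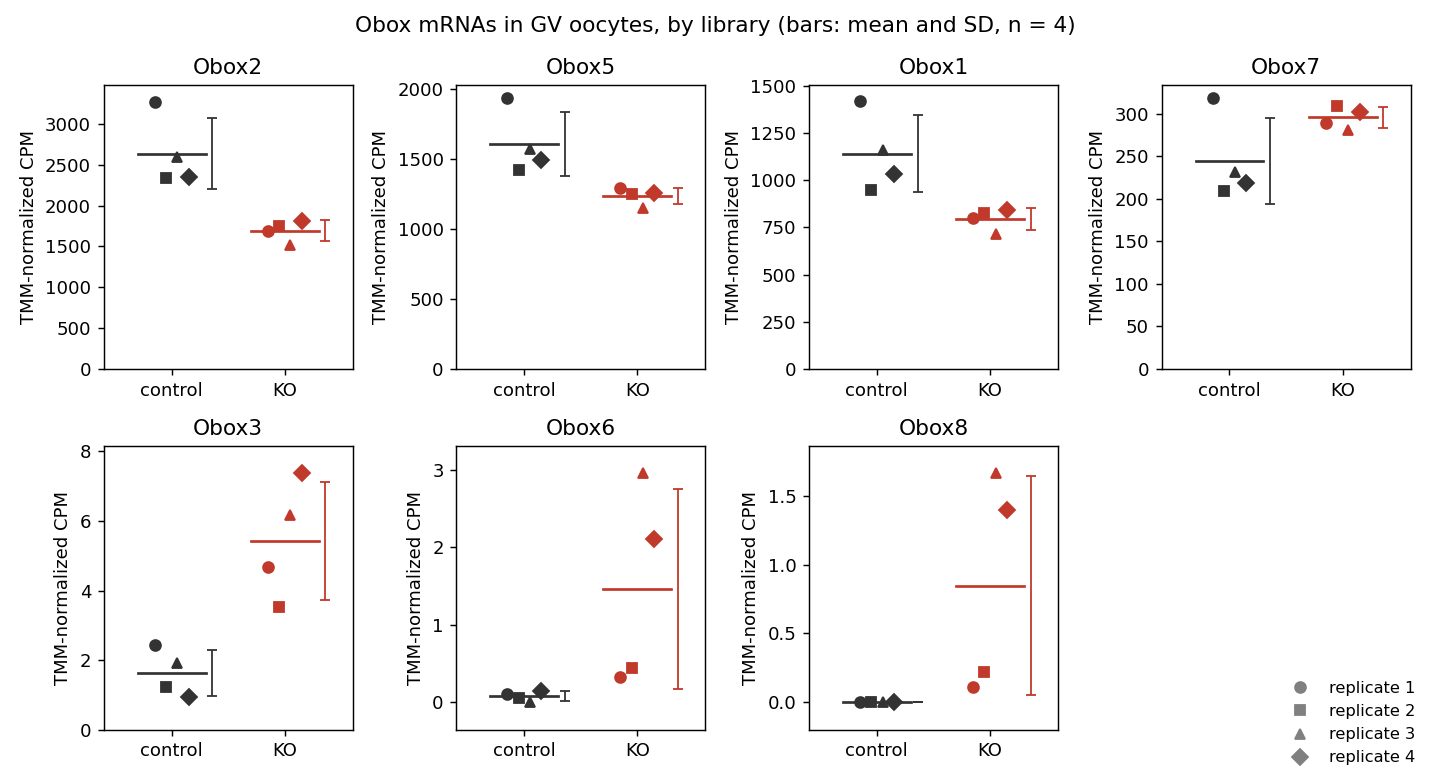
TMM-normalized CPM of each Obox member by library, on linear axes that include 0, for 4 control (dark) and 4 KO (red) libraries; marker shapes give the replicate number, horizontal lines the mean and error bars the SD. Obox2, Obox5 and Obox1 are lower in every KO library, Obox7 overlaps through control replicate 1 (319 CPM), and Obox6 and Obox8 are highest in KO replicates 3 and 4.

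With an adjusted p of at most 0.05 as the only criterion, 3 of the 7 members were lower in KO (Obox1, Obox2 and Obox5) and 3 were higher (Obox3, Obox6 and Obox8), where 24.1% of all tested genes were lower and 31.2% higher. With the added requirement of a 2-fold change, which defined DEGs, the same 3 members were higher and 0 were lower, where 23.8% of all tested genes were higher and 6.56% lower. The count of 0 is by edgeR's quasi-likelihood test, in which 3 members were lower at an unadjusted p under 0.05, and DESeq2 and edgeR's exact test also gave 0. Every KO library lay below every control library for 3 members and above for 3, against 21.4% and 27.0% of the tested genes. The exact permutation test gave a two-sided p of 0.0286 for each of these 6 members, the smallest that 4 libraries against 4 allow, and 0.143 for Obox7. Obox6 and Obox8 reached the 0.2 CPM of the filter on low values in KO libraries alone. They thus entered the test only through the group in which they were higher, and a lower call was hardly possible for them. The separation of Obox8 rests on 1 count in KO replicate 1.

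The maternal members were among the most abundant mRNAs, so they were set beside the 2414 tested genes that averaged 100 CPM or more. The median log2 fold change of those genes was -0.37, with quartiles at -0.65 and -0.087, and 55.2% were lower and 8.37% higher at the adjusted p alone. Of these genes, 26.0% had a lower log2 fold change than Obox2, 36.2% a lower one than Obox1 and 49.6% a lower one than Obox5. For Obox7 this share was 90.1%. The falls of Obox2, Obox1 and Obox5 thus lay within the middle range of abundant mRNAs, and Obox7 lay in the upper tail.

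**Figure D3:**
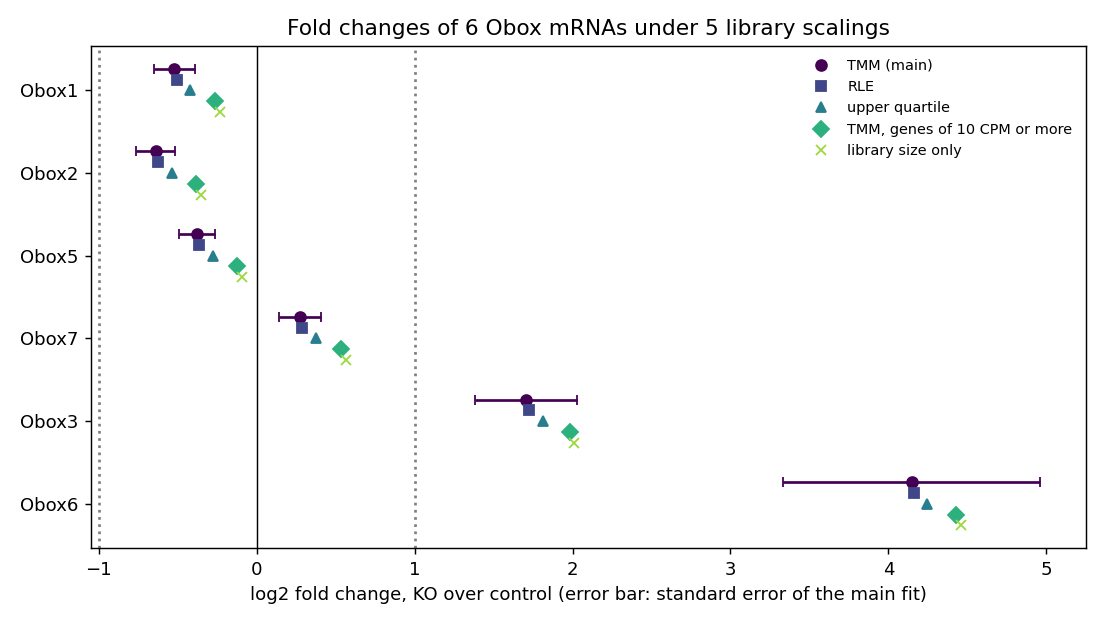
Log2 fold change (KO over control) of 6 members under 5 ways of scaling library sizes, with the standard error of the TMM fit; the dotted lines mark a 2-fold change. All 6 kept their direction, all values moved up together with library size alone (median shift of all genes 0.29), and Obox5 then lay at -0.091.

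The difference between Obox7 and the other maternal members was measured by the ratio of counts of 2 members within a library, which no scaling of library sizes changes. These ratios were chosen after the values were seen. Per Obox7 count, control libraries had 10.2 to 11.2 counts of Obox2, and KO libraries had 5.40 to 5.99. Per Obox7 count there were 4.45 to 5.02 counts of Obox1 in control and 2.54 to 2.79 in KO libraries. The corresponding ranges for Obox5 were 6.07 to 6.83 and 4.03 to 4.45. No control library overlapped a KO library in any of these ratios, control replicate 1 included.

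On the log2 scale, the mean ratio to Obox7 changed by -0.92 for Obox2, -0.80 for Obox1 and -0.66 for Obox5 (two-sided p = 0.0286 in each exact permutation test, 0.0343 after Benjamini-Hochberg adjustment over the 6 pairs of abundant members). Smaller shifts were found among the other 3 pairs. The ratio of Obox2 to Obox5 changed by -0.26 and that of Obox1 to Obox2 by 0.12, with the same p-values. The ratio of Obox1 to Obox5 changed by -0.14, and its groups overlapped (exact permutation test, p = 0.0571 before and after adjustment). Obox7 accordingly made up 4.33% ± 0.18 of all counts of the members in control and 7.35% ± 0.25 in KO libraries (SD, n = 4 each), while Obox2 went from 46.8% ± 0.65 to 42.0% ± 0.77. Obox7 had at least 2667 counts in every library, which are reads after PCR and not separate molecules.

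**Figure D4:**
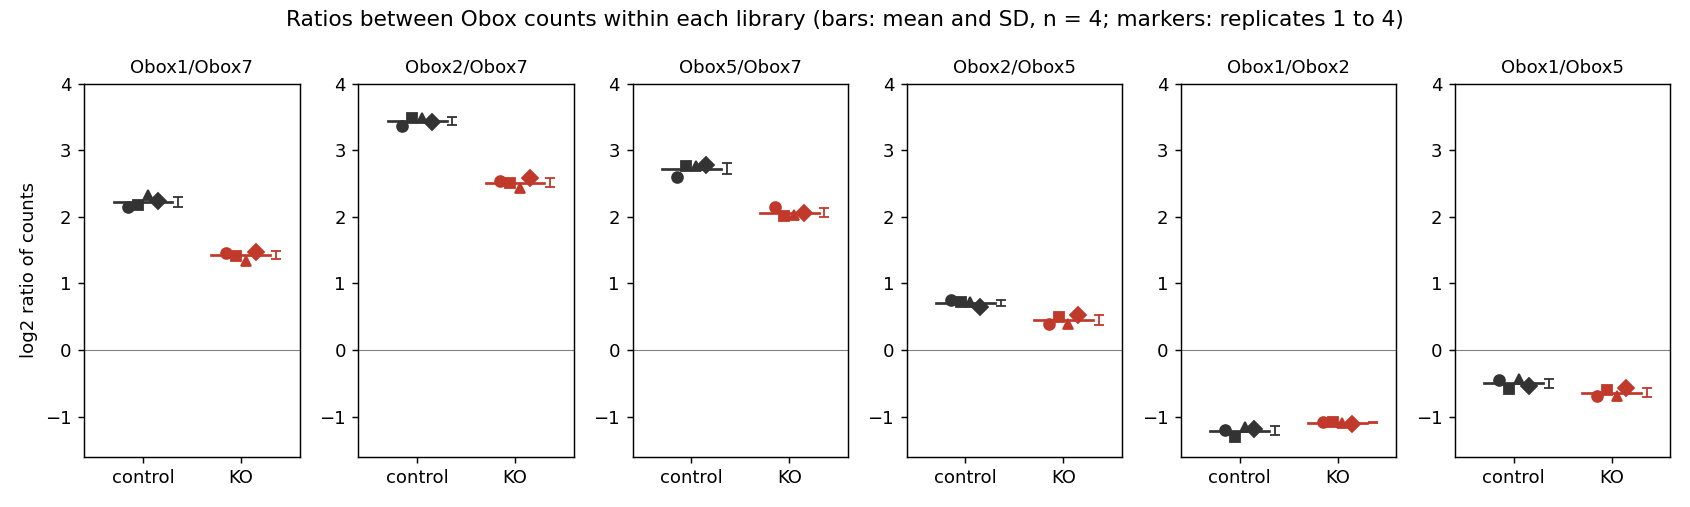
Log2 ratio of the counts of 2 Obox members within each library, for the 6 pairs of abundant members, with markers for replicates 1 to 4, lines for means and error bars for SD. The ratios to Obox7 separate the groups most, and only Obox1 to Obox5 overlaps.

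The 3 members that were rare or undetected in control oocytes had higher levels in KO oocytes. For Obox3, control replicates 1 to 4 were at 2.43, 1.23, 1.91 and 0.947 CPM, and KO replicates 1 to 4 at 4.67, 3.52, 6.17 and 7.39 CPM. All KO libraries lay above all control libraries, and KO replicate 4 was the highest. Obox3 rose 3.34-fold (1.63 ± 0.669 to 5.44 ± 1.70 CPM), or by 1.71 on the log2 scale with a standard error of 0.32 (adjusted p = 0.000795, edgeR).

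Obox6, known as a member that is active in early embryos and that raises the yield of reprogrammed stem cells when supplied to fibroblasts, had 4, 1, 0 and 2 counts in the control libraries. In KO replicates 1 to 4 it had 3, 8, 48 and 62 counts, or 0.326, 0.439, 2.96 and 2.11 CPM. KO replicates 3 and 4 thus held most of the signal, and KO replicate 1 lay at the limit of 3 counts. Its log2 change was 4.15 with a standard error of 0.81 (adjusted p = 0.00105, edgeR). With KO replicates 3 and 4 both left out, a choice made after seeing the data, it was 2.27 (adjusted p = 0.0417, edgeR).

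Obox8, the most divergent member, had no count in any control library, where 3 counts would have been 0.0802 to 0.219 CPM. The KO libraries had 1, 4, 27 and 41 counts, or 0.109, 0.220, 1.67 and 1.40 CPM. Its counts differed between the groups at an adjusted p of 0.00222 in edgeR's test. Against the mean of the control floors of 3 counts per library, the KO mean was at least 5.21-fold higher, a bound that was not itself tested. This level also rested on KO replicates 3 and 4, and without both of them Obox8 no longer passed the filter on low values. Such floors take in counting error alone, and copies made by PCR are not separate molecules.

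The table also held 41 other rows with an Obox name, 39 of them within the span of the 7 members. Of 8 rows named Obox3-ps, 7 were tested, and 5 were higher and 0 lower in KO (0 lower also at an unadjusted p under 0.05; DESeq2 called 3 higher and edgeR's exact test 4, each with 0 lower). The shares of all tested genes were 23.8% higher and 6.56% lower. Obox3-ps2, Obox3-ps3 and Obox3-ps7 passed the filter on low values through KO libraries alone, so a lower call was hardly possible for them. The 8 Obox3-ps rows summed to 5.85, 3.26, 3.88 and 4.44 CPM in control replicates and 7.60, 6.43, 11.04 and 13.7 CPM in KO replicates. Obox3-ps5, the highest of them, went from 1.99 ± 0.789 to 4.77 ± 0.590 CPM (1.24 on the log2 scale, adjusted p = 0.0024, edgeR). Obox3-ps6, which lies inside the annotated span of Obox3 on the same strand, had 1.06 ± 0.208 and 0.761 ± 0.401 CPM (adjusted p = 0.354, edgeR). The Obox3 row and its pseudogene rows therefore did not all move alike.

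Of 32 rows named Obox4-ps, 21 had a count in KO libraries and 5 in control libraries. Of the 7 that were tested, 5 were higher and 0 lower in KO, with 6 and 0 at an unadjusted p under 0.05, 4 and 0 by DESeq2 and 5 and 0 by edgeR's exact test. By the same edgeR test, 23.8% of all tested genes were higher and 6.56% lower. Obox4-ps3, Obox4-ps9, Obox4-ps27, Obox4-ps33 and Obox4-ps35 passed the filter on low values through KO libraries alone. A lower call was hardly possible for those rows. The summed level of the 32 rows was 1.07, 0.839, 0.476 and 0.219 CPM in control replicates and 1.63, 1.32, 5.30 and 17.3 CPM in KO replicates. KO replicate 4 alone held 508 of the 633 counts in KO libraries. Obox4-ps35, annotated as a lincRNA, had no count in control and 0, 1, 43 and 90 counts in KO replicates 1 to 4 (adjusted p = 0.00688, edgeR). Obox6-ps1, on chromosome 17, had no count in any library.

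KO replicates 3 and 4 were also the libraries with the most RNA of genes of the 2-cell embryo, the stage at which the mouse zygotic genome is activated. Of the 31 genes of that list, 30 were in the table and tested, and 23 were higher and 1 lower in KO, with a median log2 fold change of 6.52, or 4.58 with the 10 genes without a control count at their lower bound, against 0.12 over all tested genes. For comparison, 23.8% of all tested genes were higher and 6.56% lower. The 10 genes without a control count passed the filter on low values through KO libraries alone, as did Zfp352 and Tdpoz3. A lower call was hardly possible for these genes, and the list was chosen with earlier results of these data known. The list summed to 1086 to 1403 CPM in control libraries and to 1328, 1389, 2251 and 2328 CPM in KO replicates 1 to 4. Among its members without a count in control libraries, Gm2022 reached 18.4 ± 15.2 CPM, Usp17la, which encodes a deubiquitinase, 11.9 ± 10.7 CPM, and Gm4858 10.4 ± 11.8 CPM. Against the mean of the control floors of 3 counts per library these levels were at least 113-fold, 73.2-fold and 64.1-fold higher. These genes had the largest fitted changes, which for genes without a control count depend on the prior count. Usp17lb, named after its values were seen, was detected in control and rose from 0.218 ± 0.166 to 203 ± 141 CPM. Eif4e3, a cap-binding protein gene, fell from 176 ± 24.9 to 85.7 ± 7.42 CPM.

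The granulosa and cumulus markers were distributed differently among the KO libraries, with sums of 183, 199, 129 and 98.8 CPM in replicates 1 to 4. Of 13 tested markers, 6 were higher and 0 lower by each of edgeR's tests and by DESeq2, with 1 lower at an unadjusted p under 0.05. Of all tested genes, 23.8% were higher and 6.56% lower. Among the higher ones was Ptgs2 (2.94 ± 0.797 to 36.7 ± 5.53 CPM), which is induced in cumulus cells at ovulation, with Fst and Gja1. Foxl2, a defining granulosa factor that the rule for naming list genes does not select, had at most 1 count per library. The markers did not vary alike among KO replicates 1 to 4. Ptgs2 was at 37.4, 38.7, 28.9 and 41.8 CPM, Gja1 at 44.2, 46.8, 28.1 and 10.8 CPM, and Fst at 9.66, 13.2, 5.61 and 1.53 CPM. The part of such cells in the results was not tested. Of 8 tested markers of theca, stroma and blood, 1 was higher (Ptprc) and 1 lower (Col3a1), and they summed to 90.5 to 113 CPM in control replicates and 77.3 to 93.5 CPM in KO replicates.

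**Figure D5:**
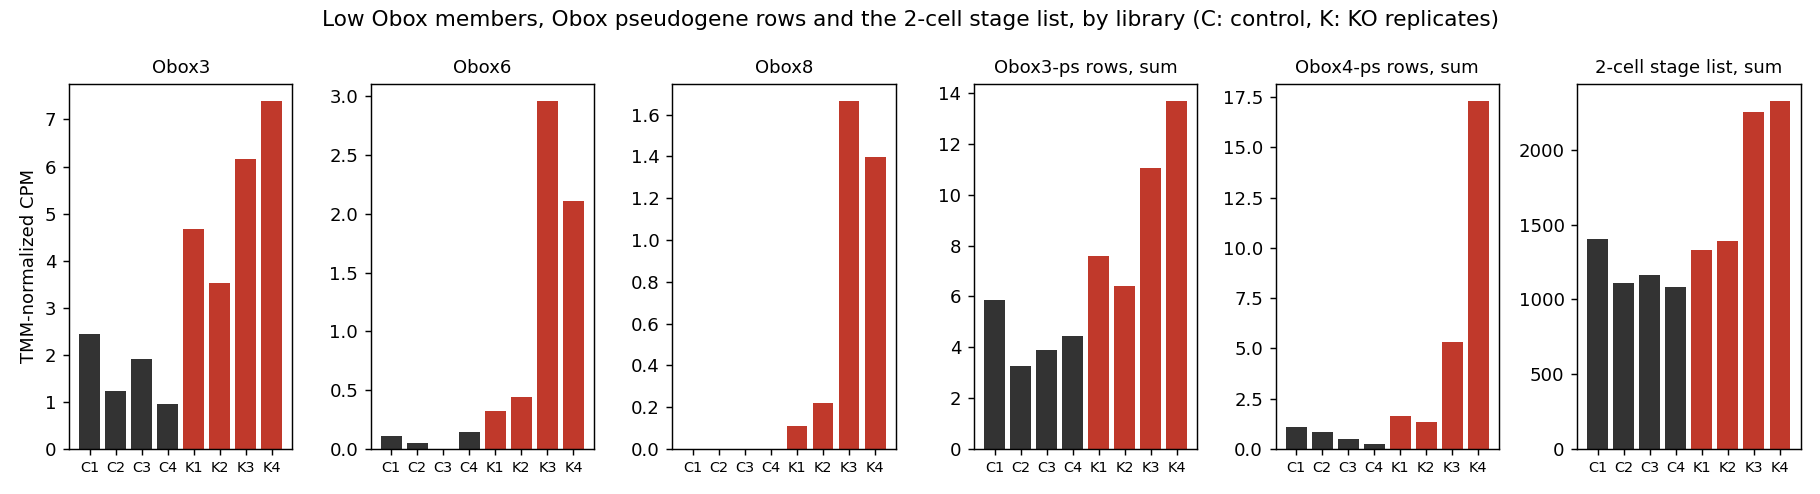
TMM-normalized CPM by library (C, control replicates; K, KO replicates; each panel has its own linear axis from 0) of Obox3, Obox6, Obox8, the summed Obox3-ps and Obox4-ps rows, and the summed 2-cell stage list. KO replicates 3 and 4 are the highest in every panel, with 2251 and 2328 CPM for the 2-cell stage list.

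The lists of genes around the family gave the following counts. Among other homeobox genes of the oocyte and early embryo, 26 were tested, 8 were higher and 1 was lower in KO (6 and 1 by DESeq2), with a median log2 fold change of 0.43. Over all tested genes, 23.8% were higher and 6.56% lower, so these counts are near the background. Sebox, a maternal homeobox gene of the oocyte, fell from 163 ± 11.9 to 47.6 ± 8.22 CPM (-1.78 on the log2 scale). Six4 rose from 0.144 ± 0.0864 to 2.07 ± 0.971 CPM, and Lhx2, a LIM homeobox gene, rose from 2.24 ± 0.542 to 6.27 ± 1.15 CPM. Crxos, another homeobox gene of the list, lies within 500 kb of the Obox cluster and had no count in control libraries and 0.109, 0.0549, 3.08 and 3.03 CPM in KO replicates 1 to 4. It was named after its values were seen, and its signal was in the same KO libraries as that of Obox6 and Obox8.

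Among 24 tested genes known as activators or regulators of the zygotic genome, 7 were higher and 0 lower in KO by each of edgeR's tests and by DESeq2, with a median log2 fold change of 0.17. At an unadjusted p under 0.05, 10 were higher and 5 lower. The count of 7 is also near the 23.8% of all tested genes that were higher, while 6.56% of all tested genes were lower. Tead4, a factor of the first extraembryonic lineage, rose from 0.566 ± 0.192 to 3.64 ± 0.753 CPM. Gabpa, an ETS factor, rose from 3.08 ± 1.51 to 19.6 ± 2.11 CPM, and Kdm5b, a histone H3K4 demethylase, from 6.66 ± 1.43 to 27.6 ± 3.61 CPM. Of 10 transcription factors of the oocyte, 1 was higher (Sohlh1) and 0 lower by the same 3 tests, with a median log2 fold change of -0.36, and at an unadjusted p under 0.05 there were 4 higher and 5 lower. Of 10 oocyte markers, 1 was lower (Mos) and 0 higher by the same tests, with a median of -0.32. At an unadjusted p under 0.05, 5 were lower and 0 higher. With the adjusted p alone, the activators had 10 higher and 4 lower, the oocyte factors 4 and 5, and the markers 0 and 5. Of all tested genes 31.2% were then higher and 24.1% lower, and of those averaging 100 CPM or more 8.37% and 55.2%.

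The position of the Obox genes was examined through their neighbours. Of 30 rows inside the span that carry no Obox name, 7 were tested, and 2 were higher (Sult2a8 and Gtpbp4-ps3) and 0 lower. There were 4 and 0 at an unadjusted p under 0.05, 1 and 0 by DESeq2 and 2 and 0 by edgeR's exact test. Sult2a8 and Gtpbp4-ps3 passed the filter on low values through KO libraries alone, so a lower call was hardly possible for them. Within 500 kb on either side, 18 genes were tested, 4 were higher and 1 was lower (Sult2a1), shares close to the 23.8% and 6.56% of all tested genes. The named ones were C5ar2, a complement receptor gene, which rose from 1.20 ± 0.485 to 7.10 ± 1.03 CPM, and Sae1, which encodes a subunit of the SUMO-activating enzyme and rose from 14.4 ± 3.99 to 33.3 ± 3.18 CPM. The median log2 fold change of these 18 genes was 0.035.

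Promoter sequences of RefSeq (GRCm38.p6, from 250 bases before to 50 after the start) were at hand for Obox1, Obox2, Obox3, Obox5 and Obox7, and not for Obox6 and Obox8. The longest stretch common to the 5 promoters is shown because it is shared by the abundant members and by Obox3, whose levels differ by orders of magnitude. It lay at chr7:15547159-15547183 for Obox1, chr7:15388850-15388874 for Obox2, chr7:15639862-15639886 for Obox3, chr7:15750260-15750284 for Obox5 and chr7:14659624-14659648 for Obox7.
Common promoter stretch: gtgagaattaaggatttgaatattg

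Of 27025 promoters searched on both strands, these 5 alone held it. Its first base lay at -1 from the start in Obox2, -98 in Obox1, -84 in Obox7, -109 in Obox3 and -110 in Obox5. The promoters of Obox1 and Obox2 were 100.0% identical over the 203 bases that aligned. Those of Obox5 and Obox7 were 97.1% identical over 274 aligned bases, and that of Obox3 was 62.8% to 77.0% identical to the others. The E-box CANNTG was found in the promoters of Obox1, Obox2, Obox5 and Obox7, and in 72.1% of all promoters. GGATTA, a core of homeodomain sites, was found in Obox3 alone of the 5 and in 7.2% of all promoters, and TATAAA likewise in Obox3 alone and in 14.2%. The homeodomain cores TAATTA and TAATTG were in none of the 5, and in 5.3% and 8.2% of all promoters. Obox5 and Obox7, with nearly identical promoters, had log2 fold changes of -0.38 and 0.27.

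The 3′UTRs were searched for TTTTAT, the core of the cytoplasmic polyadenylation element, a site through which stored oocyte mRNAs gain or lose poly(A). For each member, the 3′UTR was that of its longest annotated transcript with both a start and a stop codon. The element occurred 2 times in Obox1, Obox2 and Obox3, 3 times in Obox5, 1 time in Obox7 and Obox8, and not in Obox6. For the background, each gene's longest 3′UTR of at least 50 bases was taken, which is a different choice. There the element was present in 56.2% of 15132 tested protein-coding genes. It was present in 33.7% of the 4137 whose 3′UTR was as long as those of the members (236 to 803 bases). A site with the same 30 bases around it, with the element in capitals, was found in the 3 members that fell, at chr7:15556755-15556784 in Obox1, chr7:15398434-15398463 in Obox2 and chr7:15759156-15759185 in Obox5.
Obox1, Obox2 and Obox5: cataccactgtgTTTTATgtagtgcgattg
A further site in each of these members was more like the single site of Obox7.
Obox1 and Obox2, further site: taggtcttaattTTTTATtgttagagtata
Obox5, further site: agcctattatttTTTTATtgttagagtata
Obox7: gctattaattttTTTTATtgttagagaata
Of the 30 bases around the Obox7 site, 20 were identical in the further site of Obox1 and Obox2 and 21 in that of Obox5, including 11 of the 12 bases after the element. The window shared by the 3 members that fell was identical to the Obox7 window at 15 of 30 bases. Obox7 thus lacked an exact copy of that window and held a close relative of the other site.
These matches are a description of the annotated sequence, and no test related it to the levels.

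The genes whose pattern over the 8 libraries was most like that of the abundant members were found by the Euclidean distance between mean-centred log2 CPM values, over 13758 genes that averaged 1 CPM or more. For Obox2 they were Fxr1 (distance 0.0832), an RNA-binding protein gene, then Wdr75 and D5Ertd577e. For Obox5 they were Prpf38a (0.105), a splicing factor gene, then Nup43 and Rsl1d1. For Obox1 they were Taf9b (0.110), a TFIID subunit gene, then Hsp90aa1 and Sucla2. Fxr1 fell from 752 ± 109 to 492 ± 38.3 CPM, to 65.4% of the control level, and Hsp90aa1 from 4092 ± 660 to 2791 ± 238 CPM, to 68.2%. None of the 9 genes was another Obox member.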

How the data were processed

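The authors mapped the reads to GRCm38 with STAR 2.6.1d (nf-core/rnaseq) and deposited raw counts per gene, neither normalized nor pooled; the annotation, counting tool and strand setting are not given in the sources used here. The labels name a stranded total RNA kit and the study's methods a stranded mRNA kit, and both describe removal of ribosomal RNA; the methods give 11 PCR cycles. The table held 46078 genes, 28353 with a count, and 98.0% of identifiers were in GENCODE vM21.

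Groups and replicate numbers came from the labels. Genes with at least 0.2 CPM in 2 libraries were tested with edgeR 4.0.16's quasi-likelihood test in R 4.3.3 after TMM scaling, with Benjamini-Hochberg adjustment over 19241 genes. The DEG threshold was 0.05 for the adjusted p and 2 for the fold. Single values were compared by exact permutation over 70 assignments. Coding sequences were aligned with mafft 7.526, and figures drawn with matplotlib 3.10.9. Floors are 3 counts. The members and lists were chosen with earlier results of these data known. From each list, up to 3 called genes per direction with a mean of at least 1 CPM were named by size of log2 fold change, and a list's called genes of 5 or fewer otherwise. Alternatives were DESeq2 1.42.0, edgeR's exact test, other scalings, filters and thresholds, the replicate block and leaving out libraries.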

Additional observations from a re-analysis of the deposited data

How the results depend on the processing

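No direction of a member turned under any alternative. Requiring at least 1 CPM in 4 libraries left 13876 genes, with Obox6 and Obox8 untested, so that 1 member (Obox3) was higher. Without the fold threshold, 3 members were lower, and 24.1% of all genes were lower against 6.56% with it, 3.05% with library size alone, 3.26% with TMM on genes of at least 10 CPM and 4.34% without a filter. The log2 fold change of Obox1 was -0.234 with library size alone, that of Obox5 was -0.091 with library size alone and -0.121 with TMM on genes of at least 10 CPM, none past an adjusted p of 0.05 in edgeR's test. That of Obox7 passed with library size alone (0.564), upper quartile scaling (0.376), TMM on genes of at least 10 CPM (0.535), the stricter filter (0.345) and, chosen after seeing the data, without control replicate 1 and KO replicate 4 (0.417). The cause was not tested.

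Leaving out each library in turn gave 3 members higher and 0 lower each time, and log2 fold changes from 0.204 to 0.427 for Obox7, -0.601 to -0.399 for Obox1, -0.693 to -0.519 for Obox2, -0.433 to -0.276 for Obox5, 1.54 to 2.005 for Obox3 and 3.67 to 4.50 for Obox6. Without KO replicates 3 and 4, chosen after seeing the data, 2 members were higher (Obox3 at 1.31 and Obox6 at 2.27), and Obox5 had a log2 fold change of -0.309. With the replicate block, 3 members were higher and 0 lower, Obox7 was at 0.294, and no call of a member changed. Deviations of log2 CPM from the group mean correlated at -0.19, -0.11, 0.28 and -0.33 between libraries of the same number. Between control replicate 1 and KO replicate 4 this correlation was 0.66. Centring within each group ties its deviations together, so these values cannot decide whether the numbers pair the samples. Depth limits Obox6 and Obox8, which lie near 3 counts in KO replicate 1.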
